A study of Caenorhabditis elegans with 12 samples.

Results

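The sites described here were stretches of chromosomes II to V where MRG-1 was called in N2 animals and not in *glp-4(bn2)* animals, and which lay next to a site that was called in *glp-4(bn2)*. The peaks of 6 MRG-1 ChIP-seq lists were merged into sites wherever they overlapped by at least 1 bp, and a sample was taken to call every site that held one of its peaks. The flanking N2-only sites were chosen by the calls of all 6 lists. Each held peaks of 2 or 3 N2 samples but none of *glp-4(bn2)*, with a gap of at most 2000 bp to the nearest site called in any *glp-4(bn2)* sample. By this rule 424 of 8226 merged sites were flanking N2-only sites. The nearest *glp-4(bn2)*-called site of each is called its neighbour in the following.

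The *glp-4(bn2)* strain, labelled SS104 glp-4(bn2) I., carries a temperature-sensitive allele and loses its germline at 25°, whereas N2 is the wild-type Bristol strain and keeps it. Both strains were kept at 15°, grown from synchronized larvae at 25° and harvested as whole L4 animals, with 3 MRG-1 ChIP samples per strain precipitated by the same antibody. The series' 6 input samples were not analysed here. The strains differ in the allele as well as in the germline, and they were compared as whole worms. Less MRG-1 at a site in each cell and fewer cells that carry MRG-1 there can therefore not be told apart. The labels do not say whether replicates came from separate cultures, so that the errors given cover only the spread between these samples, which may be technical.

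MRG-1 is the worm ortholog of human MRG15, a protein whose chromodomain binds histone H3 methylated at lysine 36. This mark is laid down along the bodies of transcribed genes, so that proteins that read it tend to spread over stretches of chromatin rather than to sit at a single short motif. In *C. elegans*, MRG-1 is needed for the development of the germline, where it also takes part in the repression of X-linked genes. Genes were not assigned to the sites here.

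For each ChIP sample the files held a list of MACS2 peaks with positions in the ce10 build and, for every peak, a fold enrichment over the background estimated by the caller together with a p-value and a q-value. The *glp-4(bn2)* lists held 7441, 7303 and 7584 peaks in replicates 1, 2 and 3, and the N2 lists held 7737, 7073 and 7407. The lists do not give read totals. The background level against which a list was called, recovered from its p-values, was 68.9, 60.6 and 68.9 extended reads per base in *glp-4(bn2)* and 96.8, 88.9 and 77.2 in N2. Every *glp-4(bn2)* level was thus below every N2 level, and a list called at a lower level needs a higher fold for a call. At exactly these levels the fold needed for a call was 1.302, 1.316 and 1.303 in *glp-4(bn2)* and 1.247, 1.268 and 1.279 in N2, while over a higher local background lower folds could pass. Of the 424 flanking sites, 419 had a fold above 1.316 in every N2 sample that called them and 5 did not. The N2 lists themselves needed folds only a little lower, which leaves little room for called folds below 1.316. The count therefore says little about the difference in level. What part the difference in level had in the missing *glp-4(bn2)* calls was not tested.

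To place the flanking sites among the other binding sites, all sites of chromosomes II to V called in at least 2 N2 samples were counted. Of these 3860 sites, 753 (19.5%) were N2-only and 424 (11%) were N2-only with a gap of at most 2000 bp. The flanking sites therefore made up 56.3% of the N2-only sites, and the remaining 329 N2-only sites are called isolated. Closeness to a *glp-4(bn2)*-called site was not particular to N2-only sites. Of the 3107 other N2 sites, 2258 (72.7%) lay within 2000 bp of another site called in *glp-4(bn2)*, a larger share than among N2-only sites. The median gap was 1369 bp for N2-only sites and 562 bp for the other N2 sites. The rule was built on these calls, so that the counts describe the lists and carry no test.

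**Figure D1:**
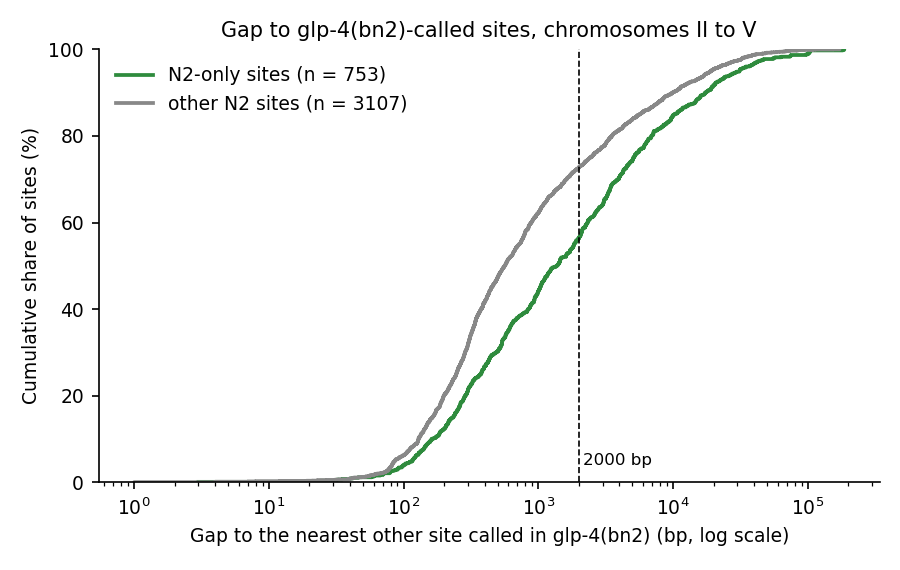
Cumulative share (%) of sites of chromosomes II to V against the gap (bp, log scale) to the nearest other site called in *glp-4(bn2)*, for 753 N2-only sites (green) and 3107 other N2 sites (grey). At the dashed line of 2000 bp, 56.3% of the N2-only sites and 72.7% of the other sites had been reached, with the green line below the grey one.

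The mirrored rule gave fewer sites. On the same chromosomes 385 sites held peaks of 2 or 3 *glp-4(bn2)* samples but none of N2, and of these 110 had a gap of at most 2000 bp to a site called in N2. These 110 were 28.6% of the *glp-4(bn2)*-only sites and 3.25% of the 3384 sites with peaks of 2 or 3 *glp-4(bn2)* samples. Of the 2999 other *glp-4(bn2)* sites, 76.1% lay within 2000 bp of another site called in N2. At a median of 776.5 bp, the 110 sites of the mirrored rule were about as wide as the flanking N2-only sites, with 739 bp. Outside the rule, 172 of 256 N2-only sites of chromosome I and 3 of 16 of the X chromosome lay within 2000 bp of a *glp-4(bn2)*-called site.

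The flanking sites were narrow. Their width ran between 323 and 4878 bp with a median of 739 bp, against 1012 bp for isolated N2-only sites and 2361 bp for the other N2 sites, and together they covered 405 kb. Most were simple, as 382 of the 424 had a single peak in every sample that called them, and none had more than 4 in a sample. The gap to the neighbour had a median of 429 bp, with the middle 50% of sites between 216 and 936.75 bp and the extremes at 3 and 1967 bp. The neighbour lay to the left of 221 flanking sites and to the right of 203.

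All 3 N2 samples called 238 flanking sites (56.1%), and 186 were called in 2 of them. The missing call was in N2 replicate 1 for 42 sites, in replicate 2 for 45 and in replicate 3 for 99. N2 replicate 3 also had the lowest background level of the 3 N2 lists, and whether the level had a part in its missing calls was not tested. Isolated N2-only sites were called in all 3 samples more often, at 65.3%.

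Flanking sites were among the weaker peaks of the N2 lists. In N2 replicates 1, 2 and 3 their peaks had a median fold of 1.70, 1.82 and 1.73, against 1.85, 2.11 and 1.90 at isolated sites and 2.628, 2.999 and 2.562 at the other N2 sites. In each list the flanking sites had the lowest median, and the median over the whole list was 2.31, 2.33 and 2.31. The ratio of the flanking median to that of the other N2 sites was 0.647, 0.606 and 0.677, or 0.643 ± 0.0355 (SD, n = 3), and that to the isolated sites was 0.898 ± 0.0328 (SD, n = 3). Ranked within its list, the median flanking peak stood between percentile 19.5 and 27.9, at 22.5 ± 4.71 on average, below 34.2 ± 7.20 at isolated sites and 61.0 ± 4.28 at other N2 sites (SD, n = 3 each). The median peak was 557 ± 96.4 bp wide at flanking sites, 809 ± 177 bp at isolated sites and 1334.5 ± 295 bp at the other N2 sites (SD, n = 3 each). A peak of low fold is more easily lost from a list, so that the absence of a *glp-4(bn2)* call favours low folds and no test was made of these values.

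**Figure D2:**
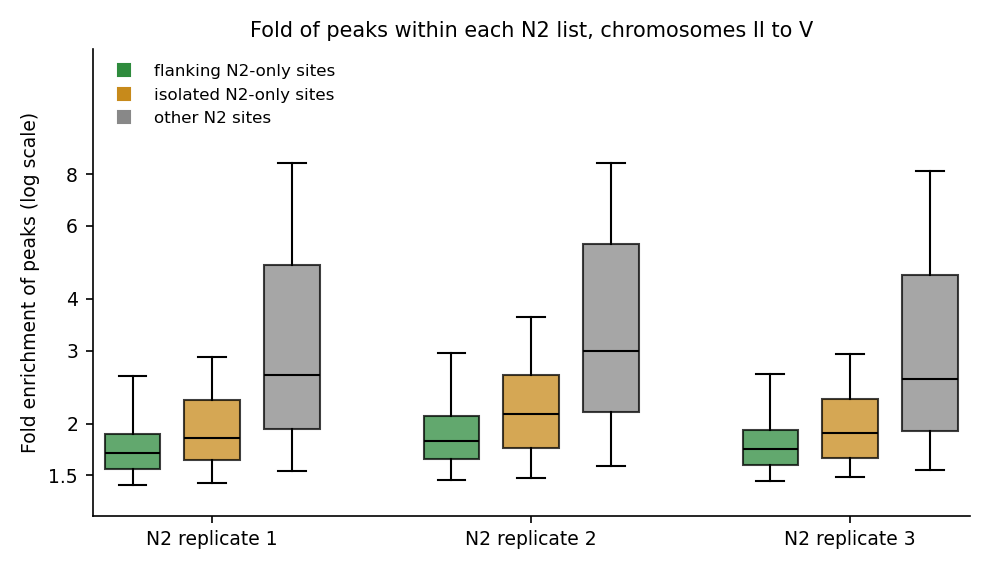
Fold enrichment (log scale) of the peaks in each N2 list at 424 flanking N2-only sites (green), 329 isolated N2-only sites (orange) and 3107 other N2 sites (grey) of chromosomes II to V, as called in that sample. Boxes span the middle 50% of peaks with a line at the median and whiskers reach from percentile 5 to 95, and in all 3 lists the flanking boxes lie lowest, with medians of 1.70, 1.82 and 1.73.

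Low as they were, most of these peaks passed a stricter threshold, though fewer than in the other classes. A q-value of at most 1e-05 was reached by 83.0%, 88.9% and 78.2% of the flanking peaks in N2 replicates 1, 2 and 3. The shares were 88.7%, 92.2% and 86.3% at isolated sites and 96.5%, 97.3% and 94.8% at the other N2 sites. Averaged over the samples that called it, the fold of a flanking site ran between 1.41 and 3.85 with a median of 1.73. Every called fold was above 2 at 38 flanking sites (8.96%) and at 91 isolated sites (27.7%), and every called fold was below 2 at 274 flanking sites. The highest fold of any flanking peak was 3.35, 5.20 and 3.29 in replicates 1, 2 and 3.

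At flanking sites called in all 3 N2 samples, the folds of these samples were correlated. Over the 238 sites called in all 3 samples, Pearson's correlation of log2 fold across sites was 0.739 for replicates 1 and 2, 0.780 for 1 and 3, and 0.689 for 2 and 3, where all points share their lists and sites are not replicates. Over 199 flanking sites with a single peak in each of the 3 samples, the summits of a site spread over a median of 141 bp, against 148.5 bp at 172 isolated sites and 120 bp at 147 neighbours. Peaks of flanking sites were narrower, which leaves less room for such a spread. Over all peaks, the median width averaged over N2 samples was 557 bp there, 809 bp at isolated sites and 1488 bp at neighbours. Measured from the edge that faced the neighbour, the summit lay on average at 49.6%, 50.3% and 50.0% of the width of the peak in N2 replicates 1, 2 and 3. It fell on the neighbour's side of the middle in 50.1%, 47.7% and 49.0% of peaks. Summits thus fell about as often on either side, which does not say how far from the middle single ones lay.

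Fold changed little with the gap, while the median width fell from group to group. The 126 sites with a gap of up to 250 bp had a median fold of 1.81 and a median width of 794 bp. The 102 sites between 250 and 500 bp had a fold of 1.73 and a width of 771.5 bp, and the 105 sites between 500 and 1000 bp a fold of 1.71 and a width of 671 bp. The 91 sites between 1000 and 2000 bp had a fold of 1.70 and a width of 639 bp, and 48.4% of them were called in all 3 N2 samples, against 57.9%, 58.8% and 58.1% in the 3 nearer groups. The nearest sites thus had the highest medians and the farthest the lowest, within a narrow range for the fold.

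At the limit itself, the nearest sites on either side were all weak. The flanking sites just inside were chrIII:9859847-9860667, with a gap of 1967 bp and a fold of 1.59 and 1.82 in N2 replicates 1 and 2, and chrV:937944-938491, with a gap of 1966 bp and a fold of 1.73 and 1.63 in replicates 1 and 3. The N2-only sites just outside were chrV:8423642-8424703, with a gap of 2005 bp and a fold of 1.42, 1.42 and 1.57 in the 3 samples, and chrIII:9836840-9837889, with a gap of 2013 bp and a fold of 1.46 and 1.60 in replicates 1 and 2. In each N2 sample the folds just inside were higher than those just outside, over no more than 2 sites on a side.

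Chromosome III held 153 flanking sites (36.1%), IV held 109 (25.7%), V held 85 (20.05%) and II held 77 (18.2%). Of the other N2 sites, 30.6% were on III, 25.3% on IV, 20.5% on V and 23.6% on II, so that flanking sites followed the other N2 sites closely on IV and V, with a larger share on III and a smaller one on II. The share of a chromosome's N2-only sites that flanked a *glp-4(bn2)*-called site was 71.2% on III, 57.4% on IV, 50.6% on V and 42.8% on II. The sites themselves were similar on the 4 chromosomes. The median fold was 1.72 on II, 1.74 on III, 1.69 on IV and 1.78 on V, and the median gap was 397, 336, 442 and 524 bp in the same order. When the called span of each chromosome was cut into equal left, middle and right parts, the middle held 33.0% of flanking sites, 29.8% of isolated sites and 30.4% of the other N2 sites.

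A set of 109 flanking sites lay between *glp-4(bn2)*-called sites on both sides at no more than 2000 bp, and 315 had one on one side only. Where both sides were close, the *glp-4(bn2)*-called sites stood a median of 2169 bp apart, and the flanking site filled 41.9% of that stretch. Where only one side was close, the *glp-4(bn2)*-called site on the other side was a median of 7910 bp away. The median fold was 1.73 for both kinds and the widths were 744 and 739 bp. Sites with close neighbours on both sides were called in all 3 N2 samples in 64.2% of cases, against 53.3% for those with one. Another N2-only site lay within 2000 bp of 135 flanking sites.

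The 424 flanking sites had 381 different neighbours, which were wider and stronger than they. The width of the neighbours ran between 307 and 59421 bp with a median of 2716 bp, and their peaks had a median fold of 2.27, 2.47 and 2.38 in the *glp-4(bn2)* lists and of 2.65, 2.98 and 2.52 in the N2 lists. The other N2 sites had about the same median folds in the N2 lists, at 2.628, 2.999 and 2.562. A single flanking site was next to 341 neighbours, 2 were next to 37 neighbours and 3 were next to 3. The 37 neighbours with a pair had it on opposite sides in 13 cases and on the same side in 24. Not every neighbour was well shared between the strains. All 6 samples called 288 of them, while 51 were called in only 1 *glp-4(bn2)* sample, 37 in 2 and 293 in 3. N2 called 376 neighbours in at least 1 sample, and 5 were called in no N2 sample, so that the flanking sites next to them did not border a site of both strains.

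The nearest peaks outside the flanking sites mostly lay farther away in *glp-4(bn2)* than in N2. The median distance from a flanking site to the nearest peak outside it was 1114.5, 892 and 1228 bp in *glp-4(bn2)* replicates 1, 2 and 3, and 490.5, 341.5 and 518 bp in N2 replicates 1, 2 and 3. The nearest peak of any *glp-4(bn2)* sample was farther away than the nearest of any N2 sample at 371 flanking sites, closer at 52 and equally far at 1. No peak of a sample lay within 2000 bp of 85, 47 and 109 flanking sites in *glp-4(bn2)*, and of 10, 11 and 20 in N2. The site that defines the gap was merged over both strains, and its *glp-4(bn2)* peaks could end farther away than its N2 peaks did. At 35 flanking sites (8.25%) no *glp-4(bn2)* sample had a peak within 2000 bp, and at 300 all 3 had one. The distances in N2 include peaks of other N2-only sites, and since the rule is built on the same calls they were not tested. They are not given for isolated or other N2 sites, so that they are not shown to be particular to flanking sites. Peaks that reached less far in *glp-4(bn2)* were seen more widely. Among both edges of all sites of these chromosomes called in all 6 samples, 31.8% were shorter in every *glp-4(bn2)* sample than in every N2 sample.

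**Figure D3:**
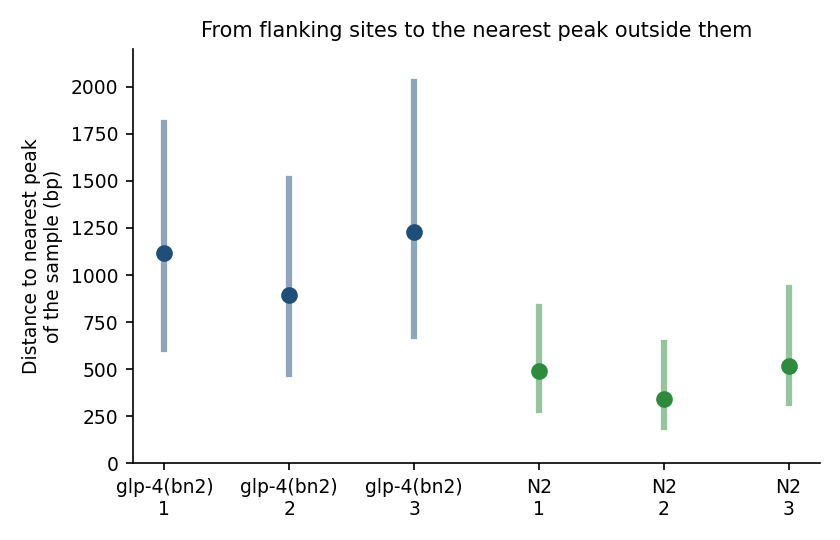
Distance (bp) from the 424 flanking N2-only sites to the nearest peak outside the site in each *glp-4(bn2)* sample (blue) and each N2 sample (green), with points at the median and bars over the middle 50% of sites. The *glp-4(bn2)* medians lie between 892 and 1228 bp, above the N2 medians of 341.5 to 518 bp.

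Whether the neighbours differed in strength between the strains was asked at the 288 neighbours called in all 6 samples, by the percentile of their fold within each list. The mean percentile was 65.3, 67.2 and 63.4 in *glp-4(bn2)* and 72.7, 74.3 and 71.2 in N2, with every *glp-4(bn2)* sample below every N2 sample. The means were 65.3 ± 1.90 in *glp-4(bn2)* and 72.7 ± 1.58 in N2 (SD, n = 3 each), a difference of -7.41. The 2161 other sites of these chromosomes that all 6 samples called had 67.3, 70.1 and 66.2 in *glp-4(bn2)* and 70.9, 72.0 and 69.5 in N2. There the strains overlapped, and the difference was -2.93.

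Set against those other sites in the same sample, the neighbours stood lower in *glp-4(bn2)* and higher in N2. Neighbours minus other sites was -2.005, -2.864 and -2.734 percentile points in *glp-4(bn2)* and 1.81, 2.32 and 1.71 in N2. The means of -2.53 ± 0.463 in *glp-4(bn2)* and 1.95 ± 0.329 in N2 (SD, n = 3 each) differed by -4.48. The neighbours were picked for lying next to a stretch that the same *glp-4(bn2)* lists did not call, which favours a lower standing in *glp-4(bn2)*, so that these values are a description and nothing is read from a test of them.

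Site by site, the percentile was lower in every *glp-4(bn2)* sample than in every N2 sample at 111 of the 288 neighbours (38.5%), against 28.2% of all 2449 sites called in all 6 samples. It was higher in every *glp-4(bn2)* sample at 23 neighbours (7.99%), against 11.7% of all such sites. Lower calls thus outnumbered higher ones among all such sites too, by less than among the neighbours, and at most neighbours the strains overlapped.

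The neighbours also reached less far in *glp-4(bn2)*, and more so on the side of the flanking site. For 326 pairs of a flanking site and a neighbour called in all 6 samples, the reach of a sample was measured from the centre of the merged neighbour to the outermost edge of its peaks. Towards the flanking site it averaged 1840, 1960 and 1797 bp in *glp-4(bn2)* and 2326, 2421 and 2304 bp in N2. On the far side it averaged 2040, 2156 and 1990 bp in *glp-4(bn2)* and 2323, 2400 and 2290 bp in N2. From this centre N2 peaks reached about equally far on both sides. The centre is that of the site merged over all 6 samples. Peaks that set both of its outer edges therefore reach equally far by construction, and nothing is read from the evenness in N2. The differences between the strains do not depend on the centre. *glp-4(bn2)* peaks were shorter on both sides, by 484 bp on the facing side and by 276 bp on the far side.

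**Figure D4:**
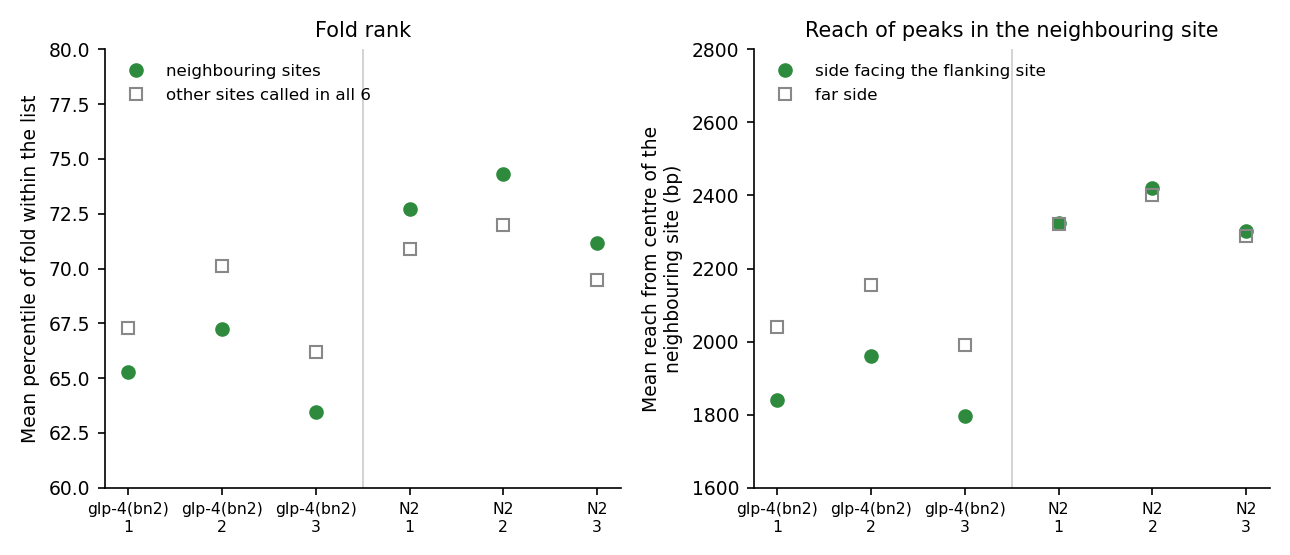
Neighbours called in all 6 samples, by sample. Left, the mean percentile of fold within the list for 288 neighbouring sites (green circles) and 2161 other sites called in all 6 samples (open squares), with neighbours lower than the other sites in *glp-4(bn2)* and higher in N2. Right, the mean reach (bp) over 326 pairs, from the centre of the neighbouring site merged over all 6 samples. Green circles show the side towards the flanking site and open squares the far side. The circles lie below the squares in *glp-4(bn2)* and level with them in N2. Neither vertical axis starts at 0.

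The reach on the facing side minus that on the far side was -200, -196 and -192 bp in *glp-4(bn2)* and 2.99, 20.4 and 13.7 bp in N2. The means were -196 ± 4.03 bp in *glp-4(bn2)* and 12.4 ± 8.79 bp in N2 (SD, n = 3 each), a difference of -208 bp. With the median over pairs in place of the mean the difference was -96.3 bp, so that its size depends on how the pairs are averaged. The facing reach was shorter in every *glp-4(bn2)* sample than in every N2 sample at 186 of 326 pairs (57.1%) and longer at 1. The far reach was shorter at 132 pairs (40.5%) and longer at 5. Of both edges of all sites called in all 6 samples, 31.8% of 4898 were shorter in every *glp-4(bn2)* sample. That share counts each edge once. The 326 pairs came from 288 neighbours, so that an edge of a neighbour with more than 1 flanking site can enter more than once. A share of longer edges over all sites is not given, and nothing is read from the 1 and 5 longer pairs.

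The shorter facing side is no independent finding, since the rule chose that side for lacking a *glp-4(bn2)* call. The mirrored rule gave the opposite sign. At 57 pairs next to flanking *glp-4(bn2)*-only sites, the facing minus the far reach was 64.5, 70.5 and 65.4 bp in *glp-4(bn2)* and -308, -107 and -266 bp in N2, a difference of 294 bp. Under both rules the facing side, measured from the merged centre, was shorter than the far side in each sample of the strain that lacked the flanking call. Among the 301 pairs whose neighbour had flanking sites on one side only, the difference was -226 bp, and it was -249 bp on chromosome II, -272 bp on III, -160 bp on IV and -100.0 bp on V. These values were added after the data had been seen.

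The 6 flanking sites called in all 3 N2 samples whose lowest fold was highest show what single sites looked like. The strongest was chrIV:11372687-11377564, which at 4878 bp was also the widest flanking site. In N2 its fold was 3.07, 5.20 and 3.29. Folds are relative to the background of their own list, and every list has its own level. Its neighbour 405 bp to the left, chrIV:11369233-11372281, had a fold of 4.38, 5.03 and 4.32 in *glp-4(bn2)* and 4.75, 5.55 and 4.92 in N2. The neighbour was thus about equally strong in the strains, and its *glp-4(bn2)* peaks ended 838, 809 and 841 bp from the flanking site against 646, 405 and 544 bp for the N2 peaks.

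The flanking site chrIII:10439241-10442391 was 3151 bp wide and lay between *glp-4(bn2)*-called sites on both sides, 1343 bp to the left and 384 bp to the right. Its fold was 2.97, 3.32 and 3.15 in N2. The neighbour on the right, chrIII:10442776-10444920, had 1.84, 1.63 and 1.98 in *glp-4(bn2)* and 2.75, 3.22 and 2.77 in N2. Here the neighbour was lower in every *glp-4(bn2)* sample as well, and its peaks ended 1054, 1050 and 1476 bp away in *glp-4(bn2)* and 497, 394 and 384 bp away in N2.

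At chrIII:12494213-12495579, 1367 bp wide and 240 bp left of its neighbour, the fold was 2.99, 3.85 and 2.89 in N2. The neighbour chrIII:12495820-12501336 had 4.27, 4.97 and 3.15 in *glp-4(bn2)* and 4.43, 4.78 and 4.71 in N2. Its highest fold overlapped between the strains, but its nearest *glp-4(bn2)* peak began 2697, 2547 and 2726 bp from the flanking site, against 300, 240 and 335 bp in N2. *glp-4(bn2)* thus lacked calls over the facing end of the neighbour as well as at the flanking site.

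The same was seen at chrII:6365643-6367175, the strongest flanking site of chromosome II, which was 1533 bp wide and 125 bp right of its neighbour. Its fold was 3.35, 2.82 and 3.23 in N2. The neighbour chrII:6359599-6365517 had 5.45, 6.40 and 5.40 in *glp-4(bn2)* and 6.12, 6.07 and 5.93 in N2, overlapping between the strains. Its *glp-4(bn2)* peaks ended 3644, 3244 and 3442 bp away and its N2 peaks 448, 125 and 367 bp away.

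Both named sites of chromosome V stood beside neighbours that changed less in extent or less evenly. At chrV:18084819-18086497, 1679 bp wide, the fold was 2.86, 4.43 and 2.89 in N2. Its neighbour 409 bp to the right, chrV:18086907-18089218, had 4.19, 4.94 and 3.74 in *glp-4(bn2)* and 5.56, 5.67 and 5.80 in N2. The neighbour was lower in every *glp-4(bn2)* sample, but its peaks began 538, 411 and 487 bp from the flanking site in *glp-4(bn2)* and 409, 411 and 456 bp in N2, so that its near edge hardly moved.

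At chrV:16405682-16408093, 2412 bp wide, the fold was 2.79, 3.02 and 2.80 in N2. Its neighbour 323 bp to the left, chrV:16401762-16405358, had 2.23, 3.34 and 2.25 in *glp-4(bn2)* and 3.14, 3.44 and 3.19 in N2. The *glp-4(bn2)* peaks of the neighbour ended 1677, 1731 and 513 bp away and the N2 peaks 416, 323 and 424 bp away. The third *glp-4(bn2)* sample stood apart from the other two there.

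**Figure D5:**
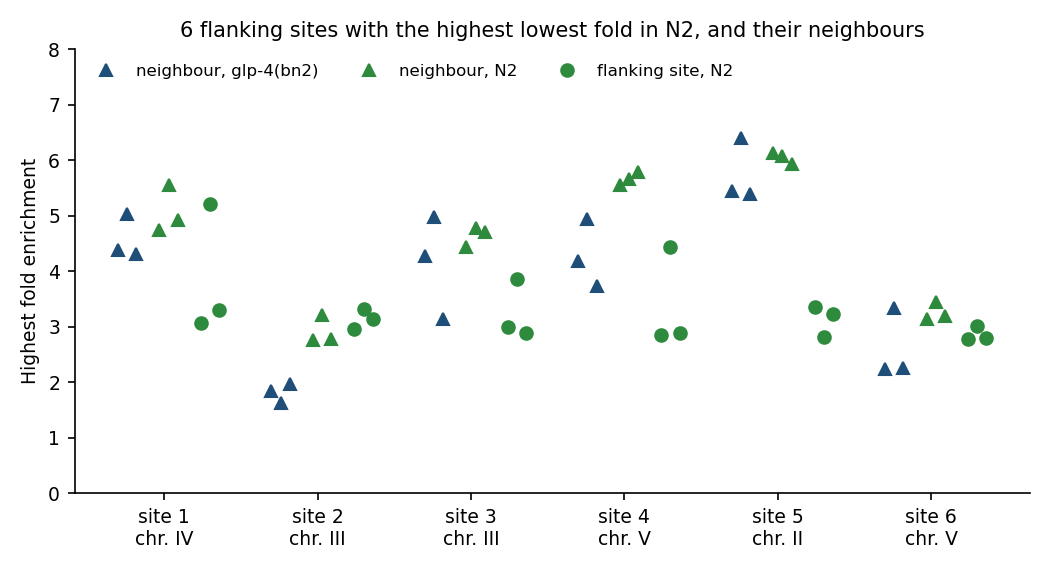
Highest fold enrichment per sample at the 6 named flanking N2-only sites (green circles, 3 N2 samples) and at their neighbours in *glp-4(bn2)* (blue triangles) and N2 (green triangles), in the order of the lowest fold of the flanking site. Flanking sites have no *glp-4(bn2)* value, and the neighbours of site 2 and site 4 show no overlap between the strains.

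The 3 neighbours with the most flanking sites had 3 each. At chrII:151407-156154, a strong site with a fold of 8.50, 11.03 and 8.75 in *glp-4(bn2)* and 10.9, 11.1 and 10.3 in N2, they followed one another on the right, as chrII:156245-156689, chrII:157176-157559 and chrII:157839-158629. The first was called in N2 replicates 2 and 3 and the others in all 3. At chrIII:9862635-9868128 they lay on the left, as chrIII:9859847-9860667, chrIII:9860766-9861465 and chrIII:9861857-9862412, and only the last was called in all 3 N2 samples. At chrIV:15468046-15474140 one lay on the left, chrIV:15467485-15467861, and a pair on the right, chrIV:15474324-15475581 and chrIV:15475909-15476602. Of these, chrIV:15474324-15475581 alone had calls of all 3 N2 samples, and its fold was 2.20, 1.82 and 2.09. The neighbours on II and III thus had a row of short N2 calls beyond a single edge, and the one on IV had them beyond both edges.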

How the data were processed

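MRG-1 ChIP-seq peaks of 3 *glp-4(bn2)* and 3 N2 samples were used as deposited, with ce10 positions. The authors mapped paired-end reads with Bowtie2 2.3.2 and called peaks per replicate with MACS2 2.1.0 (q-value threshold 0.05, no model building, reads extended to 300 bp). The versions are from the submitters' processing notes. The control used in peak calling is not given in the sources used here. Each deposited list gives the fold (a ratio to the caller's background), a −log10 p-value, a −log10 q-value and a score that follows the q-value.

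Peaks were merged into sites, and sites were classed by calls, as described above. The members and lists were chosen with earlier results of these data known. The named sites followed a rule: the 6 flanking sites called in all 3 N2 samples with the highest lowest fold, the highest of each chromosome, those of the neighbours with most flanking sites, and 2 on each side of the gap limit. The background level was the Poisson mean whose tail probabilities matched most p-values to within 1e-04 (−log10 up to 60). Two-sided exact permutation tests over samples gave p = 0.1, the smallest that 3 against 3 can give, for the neighbours' percentile against other sites and for the facing minus far reach. Neither is independent of the rule, and both are reported as descriptions. Site classes, levels and reach were tested on simulated data. Alternatives covered q-values, overlap, gap, number of samples, list length, replicate block and leaving out samples. Genes and sequences were left out, as no ce10 genome or annotation was used here. Python 3.11.15, numpy 2.4.6, pandas 2.3.3, scipy 1.17.1 and matplotlib 3.10.9 were used.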

Additional observations from a re-analysis of the deposited data

How the results depend on the processing

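Counting each result under each alternative setting, 59 values came from settings that kept all samples and 36 from leaving out a sample. Only the percentile difference of the neighbours and the reach difference have a direction. Neither reversed, but several values moved. The 59 include the reach differences for flanking sites on one side only and for single chromosomes, which were added later. The reach under the mirrored rule, described above, is not among them. The 424 flanking N2-only sites became 238 when all 3 samples had to call a site and 852 when 1 was enough, and 292 to 551 when a sample was left out. Their share of N2-only sites, 56.3%, became 44.2% at a gap of 1000 bp, 74.4% at 5000 bp, 52.5% with calls in all 3 samples and 61.5% with at least 1, and 55.2% to 57.4% when a sample was left out. The 110 flanking *glp-4(bn2)*-only sites became 71 at a q-value of at most 1e-05, 71 at a gap of 1000 bp, 182 at 5000 bp, 56 with calls in all 3 samples and 269 with at least 1. Leaving out a sample gave 73 to 153 of them, with 73 without *glp-4(bn2)* replicate 1.

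With all samples kept, the fold ratio of flanking to other N2 sites lay between 0.638 and 0.650, the percentile difference of the neighbours between -5.03 and -3.55, and the reach difference between -272 and -96.3 bp. With a sample left out they lay between 0.621 and 0.649, -5.41 and -4.32, and -259 and -155 bp. With replicate numbers as a block the differences stayed at -4.48 and -208 bp, with an exact permutation p = 0.25, the smallest that 3 pairs can give. The deviations of same-numbered samples correlated at -0.0357, 0.137 and 0.0681, and those of differently numbered samples between -0.127 and 0.0679. The values of replicates 2 and 3 were thus the highest of all, while that of replicate 1 lay within the range of the differently numbered ones. These values do not settle whether the numbers pair the samples. No permutation test here could pass 0.05, so the p-values say nothing of stability. The lists give no read totals, and the recovered background level was lower in every *glp-4(bn2)* list than in every N2 list. A site missing from a *glp-4(bn2)* list may still hold signal below the caller's threshold.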
